A study of Mus musculus with 12 samples.

Results

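The endothelial and endocardial program of the embryonic mouse ventricle was followed through 32 genes, found by symbol among the 40800 gene identifiers of the authors' count table. Each of the 32 was present once and carried enough reads to be tested. The libraries were bulk RNA-seq of heart ventricles at embryonic day 12.5, 6 from control hearts and 6 from Wnt gain-of-function (Wnt GOF) hearts, whose Wnt signalling is raised. The labels name no strain, allele or Cre driver, do not say in which cells the pathway was activated, and do not give the number of embryos in a library. They do not tie the libraries to separate animals either, so every p-value below measures the spread between these libraries.

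Endothelial cells line the vessels of the ventricular wall, and the endocardium, a specialised endothelium, lines the chamber and covers the trabeculae. ETS, SoxF and Krüppel-like transcription factors keep this identity, while adherens and tight junction proteins seal the sheet. Around mid-gestation the coronary plexus invades the wall, partly from the sinus venosus and partly from the endocardium. The apelin receptor, Apln, Fabp4 and caveolin are known for the coronary side, and Nfatc1 and Npr3 for the endocardial side.

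Library totals ranged from 10130088 to 17526325 counts in the controls and from 12127026 to 17184662 counts in the Wnt GOF group. Levels are given as CPM, a gene's reads as a share of its library's scaled total, so that libraries of unequal depth can be compared. The Wnt readouts Notum, Axin2 and Rnf43 were higher in the Wnt GOF group, with log2 fold changes of 4.84, 2.62 and 2.14 and edgeR adjusted p-values of 0.0095, 0.0145 and 0.0095. Limma-voom called none of these 3, with adjusted p-values of 0.177, 0.0982 and 0.0504. The other genes of the Wnt readout list, Nkd1, Lef1 and Ctnnb1, had log2 fold changes of 1.99, 1.38 and 0.05 and edgeR adjusted p-values of 0.0573, 0.335 and 0.999. Nkd1 passed with DESeq2, at 0.000874, and without Wnt GOF 5, at 0.000215. The library labelled Wnt GOF 5 stood apart, with Axin2 at 3.77 CPM inside the control range of 1.39 to 4.13 CPM. Its Notum was 1.18 CPM, against 12.9 to 22.4 CPM in the other 5 libraries of its group. Results are therefore also given without it where it matters.

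The 12 libraries were also divided into 3 sets that cross the genotype, found by clustering them with all listed endothelial genes left out. Each gene's mean within its genotype was subtracted first, which removes the genotype difference, and the number of sets was fixed at 3. That the sets cross the genotype follows largely from this step. Set A held control 2 and 3 with Wnt GOF 1 and 2, set B held control 4 and 5 with Wnt GOF 3 and 4, and set C held control 1 and 6 with Wnt GOF 5 and 6. Clustering over all genes gave the same sets. The labels name no batch, so what the sets are is not known here. Within the sets, 3 pairs of libraries resembled each other far more than any other pair of the series. These were Wnt GOF 3 and 4, Wnt GOF 1 and 2, and control 2 and 3, whose mean chi-square per gene was 3.07, 3.10 and 3.32 against 12.8 for the next closest pair. Sampling noise alone gives a mean near 1, which these pairs exceed. They were counted as separate libraries, and whether they share a source was not tested. If they do, the p-values that count them separately can be too small. With these pairs summed, or with set A left out, the 3 Wnt readouts called above were not called.

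None of the 32 genes was called between genotypes at an adjusted p under 0.05 by edgeR's quasi-likelihood test, where 0.501% of the 14774 genes tested were called. DESeq2 also called 0 of the 32, where it called 1.08% of all genes, and limma-voom 0, where it called 0.0203% of all genes higher and 0.0203% lower, 0.0406% in all. Without the library labelled Wnt GOF 5 edgeR called 0 of the 32, where it called 1.19% of all genes tested in either direction and 0.188% lower. With the replicate number as a block it called 0, where 0.372% were called, 0.0541% lower. Of the 32, 3 genes, or 9.38%, had an unadjusted p under 0.05, against 6.3% of all genes. All 3 were lower in the Wnt GOF group, a direction that 2.57% of all genes took at that threshold: Cd34, Prox1 and Ets1. Of the 32 log2 fold changes 14 were above 0 and 18 below, and their median was -0.02, beside 0.00 over all genes tested. They reached from -0.68 for Fabp4 to 0.18 for Clec14a, and 3 exceeded 0.5 in size. No gene of the 32 separated the groups without overlap, which 0.46% of all genes did.

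The summed level of the 32 genes overlapped between genotypes, with a median of 1637 CPM in the controls, between 1576 and 2292, and of 1647 CPM in the Wnt GOF libraries, between 1574 and 1993. Set A held the upper end in both groups, at 1962 to 2292 CPM against 1574 to 1655 CPM in the other 8 libraries. Without Fabp4 these ranges were 1769 to 1988 and 1539 to 1639 CPM. In bulk tissue, fewer endothelial cells and less RNA per endothelial cell cannot be told apart.

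**Figure D1:**
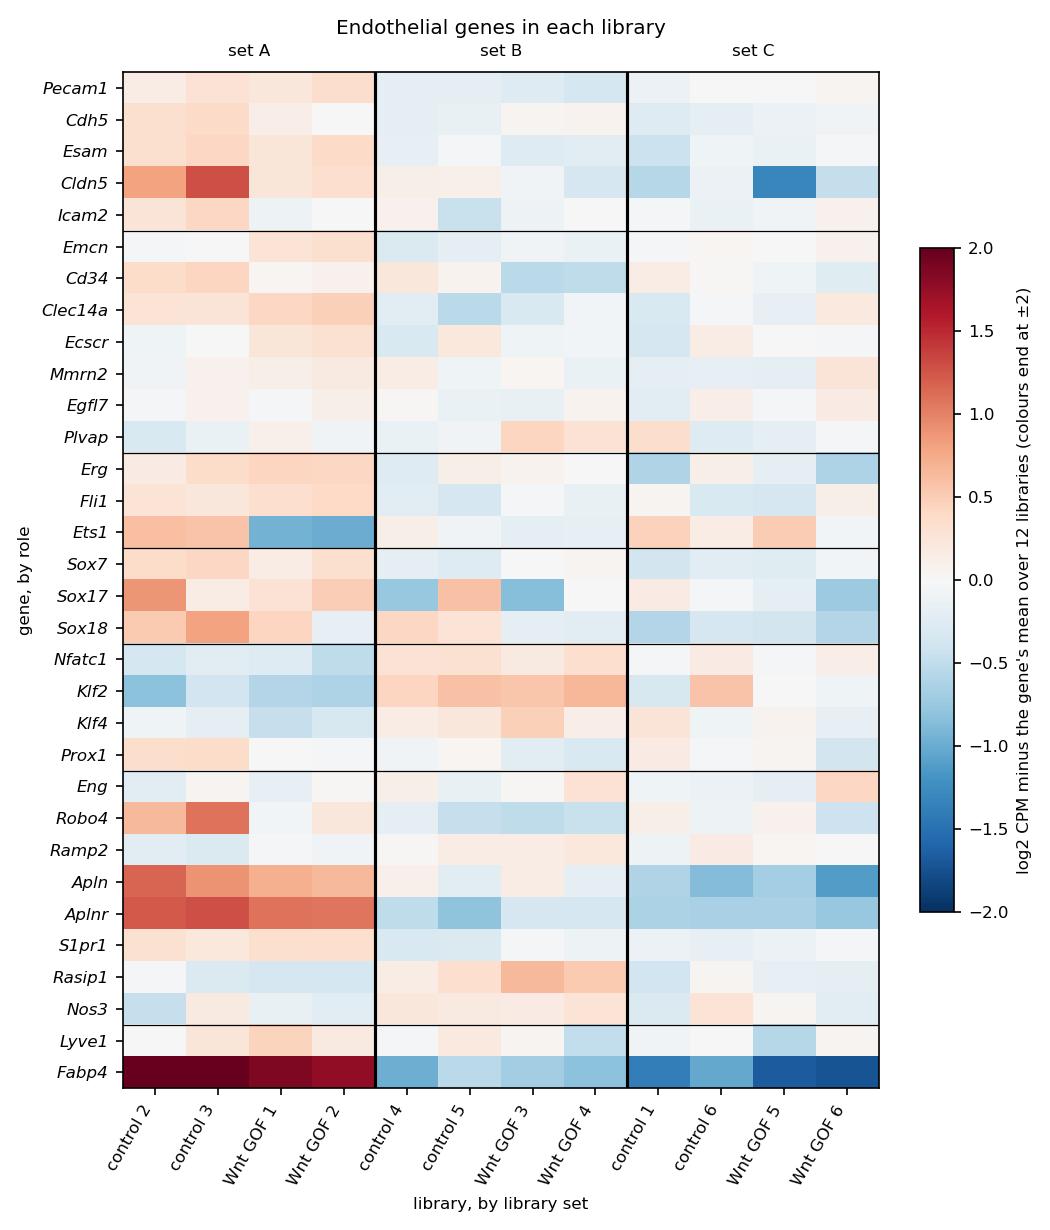
Each row is 1 of the 32 genes and each column 1 of the 12 libraries, ordered by library set. Colours give log2 CPM minus the gene's mean over the 12 libraries and end at 2 in either direction. The 4 libraries of set A stand out at Fabp4, Apln and Aplnr in both genotypes, and Cd34 is lower in both Wnt GOF libraries than in both controls of each set.

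**Figure D2:**
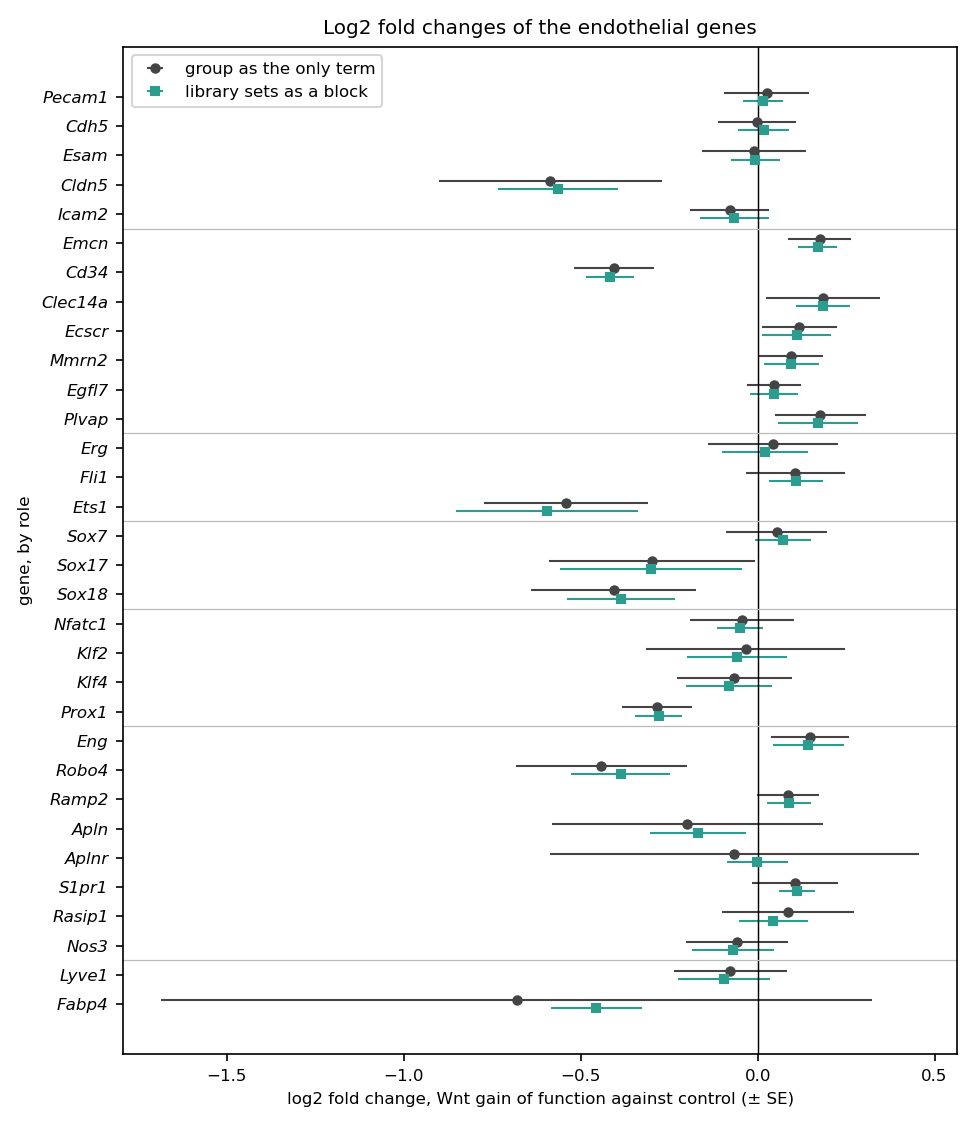
Points are log2 fold changes of Wnt GOF against control with their SE for each of the 32 genes, once with genotype as the only term (circles) and once with the library sets as a block (squares). Most genes lie near 0, Cd34, Prox1, Ets1, Cldn5, Sox18 and Robo4 lie below it, and the SE of Fabp4 and Aplnr shrinks with the block.

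With the 3 sets as a block in edgeR, 2 of the 32 genes were called lower and 0 higher, where 0.677% and 1.32% of all genes were called. These were Cd34 and Prox1. The sets were drawn from the same libraries and include the close pairs, so these p-values can be too small. The block gave 10 of the 32 genes an unadjusted p under 0.05, where it gave this to 12.6% of all genes.

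Promoter sequences are shown for both genes called with that block and for 3 of the 11 genes that were high in set A. The RefSeq table used, of the build GRCm38.p6, held 13 of the 32 genes in 18 windows, each from 250 bases before to 50 bases after a start. The windows lie at chr1:194938571-194938870 on the plus strand for Cd34, chr1:190170778-190171077 on the minus strand for Prox1, and chr16:18776597-18776896 on the plus strand for Cldn5. Those of Clec14a and Apln lie at chr12:58269209-58269508 and chrX:48034804-48035103, both on the minus strand. For Prox1 the first of its windows is shown. Capitals mark the ETS core GGAAG, or CTTCC where it lies on the other strand.
Cd34: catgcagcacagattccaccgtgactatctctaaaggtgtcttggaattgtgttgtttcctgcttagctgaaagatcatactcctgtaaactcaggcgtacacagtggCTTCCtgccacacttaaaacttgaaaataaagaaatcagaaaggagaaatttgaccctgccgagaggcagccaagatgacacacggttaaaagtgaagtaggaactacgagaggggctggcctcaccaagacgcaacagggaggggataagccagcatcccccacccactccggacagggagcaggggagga
Prox1: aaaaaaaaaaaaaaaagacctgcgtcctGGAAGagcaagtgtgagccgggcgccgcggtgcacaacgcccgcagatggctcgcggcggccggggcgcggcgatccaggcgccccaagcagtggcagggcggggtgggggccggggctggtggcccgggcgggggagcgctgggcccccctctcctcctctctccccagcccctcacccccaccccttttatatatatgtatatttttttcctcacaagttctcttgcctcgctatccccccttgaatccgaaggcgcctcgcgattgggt
Cldn5: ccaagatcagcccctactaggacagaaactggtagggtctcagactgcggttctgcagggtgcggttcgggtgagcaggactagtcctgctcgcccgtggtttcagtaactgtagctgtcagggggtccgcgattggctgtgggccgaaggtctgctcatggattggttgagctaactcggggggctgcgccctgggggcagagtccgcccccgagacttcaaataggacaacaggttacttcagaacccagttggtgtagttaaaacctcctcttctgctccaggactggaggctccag
Clec14a: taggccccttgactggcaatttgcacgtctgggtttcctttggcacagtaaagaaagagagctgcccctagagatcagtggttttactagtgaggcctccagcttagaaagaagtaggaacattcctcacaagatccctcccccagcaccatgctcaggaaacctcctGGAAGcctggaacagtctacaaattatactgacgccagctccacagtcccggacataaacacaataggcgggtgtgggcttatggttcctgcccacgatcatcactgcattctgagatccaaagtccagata
Apln: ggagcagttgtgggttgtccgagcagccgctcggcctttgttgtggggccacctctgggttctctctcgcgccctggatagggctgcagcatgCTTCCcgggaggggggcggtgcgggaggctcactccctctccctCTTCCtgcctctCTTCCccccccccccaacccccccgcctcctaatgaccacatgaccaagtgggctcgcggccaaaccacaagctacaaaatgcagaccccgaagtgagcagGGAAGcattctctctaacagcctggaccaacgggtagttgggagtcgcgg

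Cd34, Prox1 and Clec14a each held 1 copy of the ETS core, Apln held 4 and Cldn5 held 0. Over all windows the core was found in 14 of the 18, or 77.8%, beside 71.4% of the 32851 promoter windows of the table. The TCF/LEF core CTTTGA, or TCAAAG on the other strand, was absent from the 5 windows shown. It occurred in 2 of the 18 windows, those of Egfl7 and Robo4, or 11.1% beside 16% of all windows. The cores can overlap where a sequence holds both, since they share letters at their ends, and a match describes the sequence only.

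**Figure D3:**
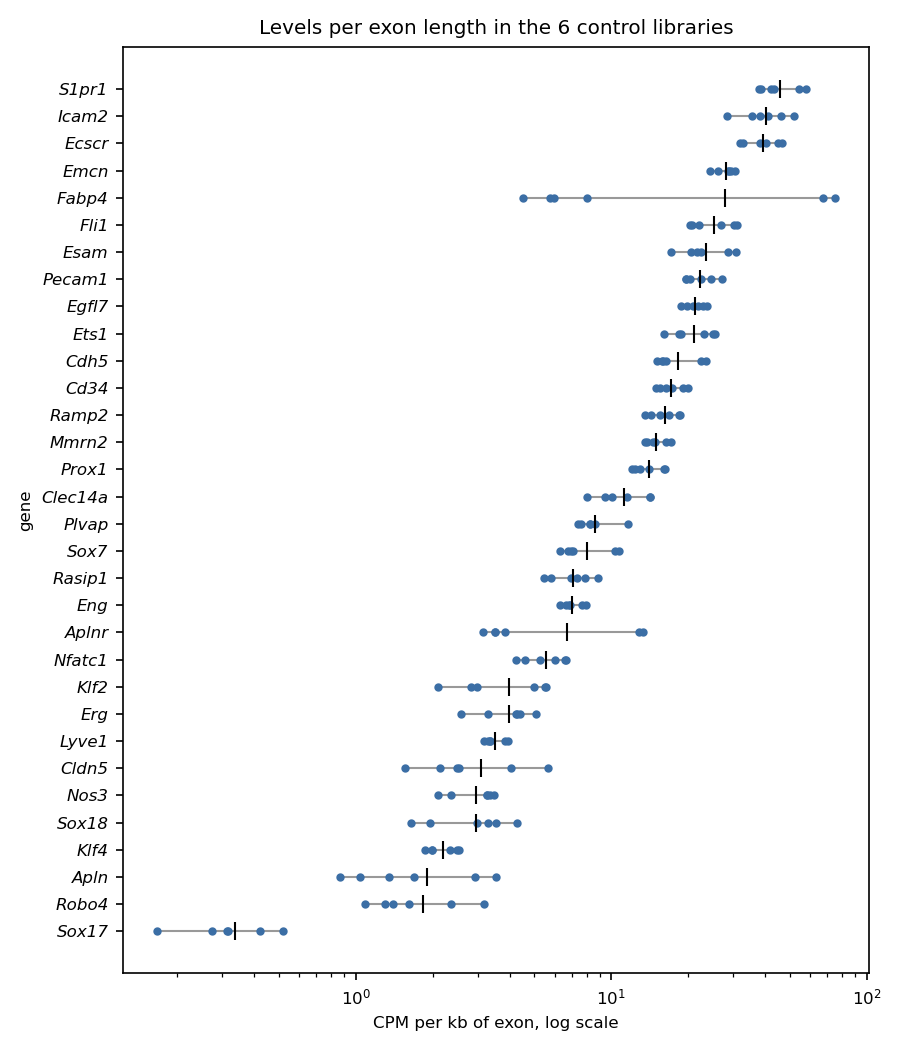
Points are the CPM per kb of exon of each gene in the 6 control libraries on a log axis, and black ticks their means. S1pr1, Icam2 and Ecscr lie at the top and Sox17 at the bottom, and the points of Fabp4, Aplnr and Apln spread most widely.

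Divided by exon length, the levels in the controls spanned from 45.7 ± 8.5 CPM per kb (SD, n = 6) for S1pr1, a receptor for sphingosine-1-phosphate, to 0.335 ± 0.12 CPM per kb for the SoxF factor Sox17. Icam2 and Ecscr followed S1pr1 at 40.2 ± 8.2 and 39.2 ± 6.1 CPM per kb, within each other's spread. The canonical marker Pecam1 ranked 8 of 32 at 22.3 ± 3.1 CPM per kb and Cdh5 ranked 11 at 18.2 ± 3.7 CPM per kb, also within their spread. Fabp4 ranked 5, but its mean of 27.8 CPM per kb came with an SD of 34 CPM per kb.

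Among the junction and adhesion genes, the markers used to define endothelium differed between genotypes by less than their spread between libraries. Pecam1 (CD31), which bridges neighbouring endothelial cells, ranged from 122 to 169 CPM in the controls (median 133) and from 109 to 178 CPM in the Wnt GOF libraries (median 142). Cdh5, the VE-cadherin of adherens junctions, ranged from 63.6 to 98.8 CPM (median 67.8) and from 69.9 to 83.5 CPM (median 76.9). All 6 Wnt GOF libraries lay above the control median for Cdh5, yet the controls of set A, at 94.3 and 98.8 CPM, lay above all of them. The log2 fold changes were 0.03 with an SE of 0.12 for Pecam1 and 0.00 with an SE of 0.11 for Cdh5, both with an edgeR adjusted p of 0.999. For Cdh5 the value was 0.18 outside set A, with its sign turned, so no direction was assigned.

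Esam, an adhesion molecule of tight junctions, had a median of 63.3 CPM in the controls and 62.7 CPM in the Wnt GOF libraries. Icam2, which leukocytes bind on resting endothelium, had medians of 75.4 and 72.2 CPM, and its Wnt GOF libraries kept to a narrow band of 68.6 to 78.8 CPM inside the control range of 54.3 to 98.6 CPM. Cldn5, the main claudin of endothelial tight junctions, was the member of this group with the largest difference. Its levels were low, from 2.21 to 8.04 CPM in the controls (median 3.55) and from 1.33 to 4.16 CPM in the Wnt GOF libraries (median 2.87). The log2 fold change was -0.59 with an SE of 0.31 and an edgeR adjusted p of 0.91, or 0.0963 with the sets as a block. Within sets A, B and C it was -0.81, -0.32 and -0.52, so the Wnt GOF libraries of each set averaged lower, while the groups overlapped across sets.

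Of the 7 surface and secreted genes 6 had positive log2 fold changes, between 0.05 and 0.18, and none of them was called. Emcn, the endomucin of endocardium, veins and capillaries, ranged from 131 to 165 CPM in the controls (median 156) and from 147 to 201 CPM in the Wnt GOF libraries (median 166). Its log2 fold change was 0.17 with an SE of 0.09 and an edgeR adjusted p of 0.859, and the upper values, 194 and 201 CPM, were Wnt GOF 1 and 2. Clec14a, a C-type lectin of sprouting vessels, ranged from 36.8 to 65.1 CPM and from 43.6 to 74.3 CPM, with a log2 fold change of 0.18, an SE of 0.16 and an edgeR adjusted p of 0.999. Mmrn2, a matrix ligand of Clec14a, stood at medians of 58.2 and 64.7 CPM with a log2 fold change of 0.09.

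Ecscr, a regulator of endothelial migration, had medians of 68.9 and 70.4 CPM. Egfl7, a secreted vascular factor, was the steadiest of the 32, at 66.9 to 84.9 CPM in the controls and 69.5 to 86.4 CPM in the Wnt GOF libraries, a 1.29-fold span over all 12. Plvap, which forms the diaphragms of fenestrae, had medians of 16.4 and 18.6 CPM, and control 1, at 23.1 CPM, lay far from the other controls.

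Cd34, a sialomucin of endothelial and blood progenitor cells, had the lowest p of the 32 genes. It stood at 120, 139, 145, 126, 113 and 109 CPM in controls 1 to 6 and at 111, 114, 74.7, 75.9, 101 and 91.1 CPM in Wnt GOF 1 to 6. Every Wnt GOF library lay below the control median of 123 CPM, 4 of the 6 lay below the lowest control, and the 2 of set A overlapped the controls. The means were 125 ± 14.2 and 94.6 ± 17 CPM (SD, n = 6), a log2 fold change of -0.41 with an SE of 0.11 and an edgeR adjusted p of 0.212. It was -0.34, -0.67 and -0.25 within sets A, B and C. With the sets as a block the log2 fold change was -0.42 with an SE of 0.07 and an edgeR adjusted p of 0.0024. Without the library labelled Wnt GOF 5 the adjusted p was 0.157, with no block, and across all alternatives the adjusted p ranged from 0.0024 to 0.81. The upper end came from summing the close pairs, 1 of which held the lowest values, 74.7 and 75.9 CPM.

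The ETS factors bind the GGAAG core in most endothelial enhancers, and none of the 3 listed was called. Erg had medians of 14.7 and 13.9 CPM and Fli1 of 85 and 92.4 CPM, with log2 fold changes of 0.04 and 0.11. Ets1, which endothelial and mesenchymal cells share, stood at 196, 216, 213, 156, 136 and 159 CPM in controls 1 to 6 and at 74.2, 71.9, 126, 127, 203 and 138 CPM in Wnt GOF 1 to 6. The low values were Wnt GOF 1 and 2, whereas the library labelled Wnt GOF 5 sat among the highest controls. The log2 fold change was -0.54 with an SE of 0.23 and an edgeR adjusted p of 0.706, or 0.105 without that library.

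Ets1 was uneven across the sets. Within set A its log2 fold change was -1.56, and within sets B and C it was -0.21 and -0.06. Outside set A it was -0.12. Set A held both the lowest Wnt GOF libraries, which are a close pair, and the highest controls. With the sets as a block its edgeR adjusted p was 0.389.

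**Figure D4:**
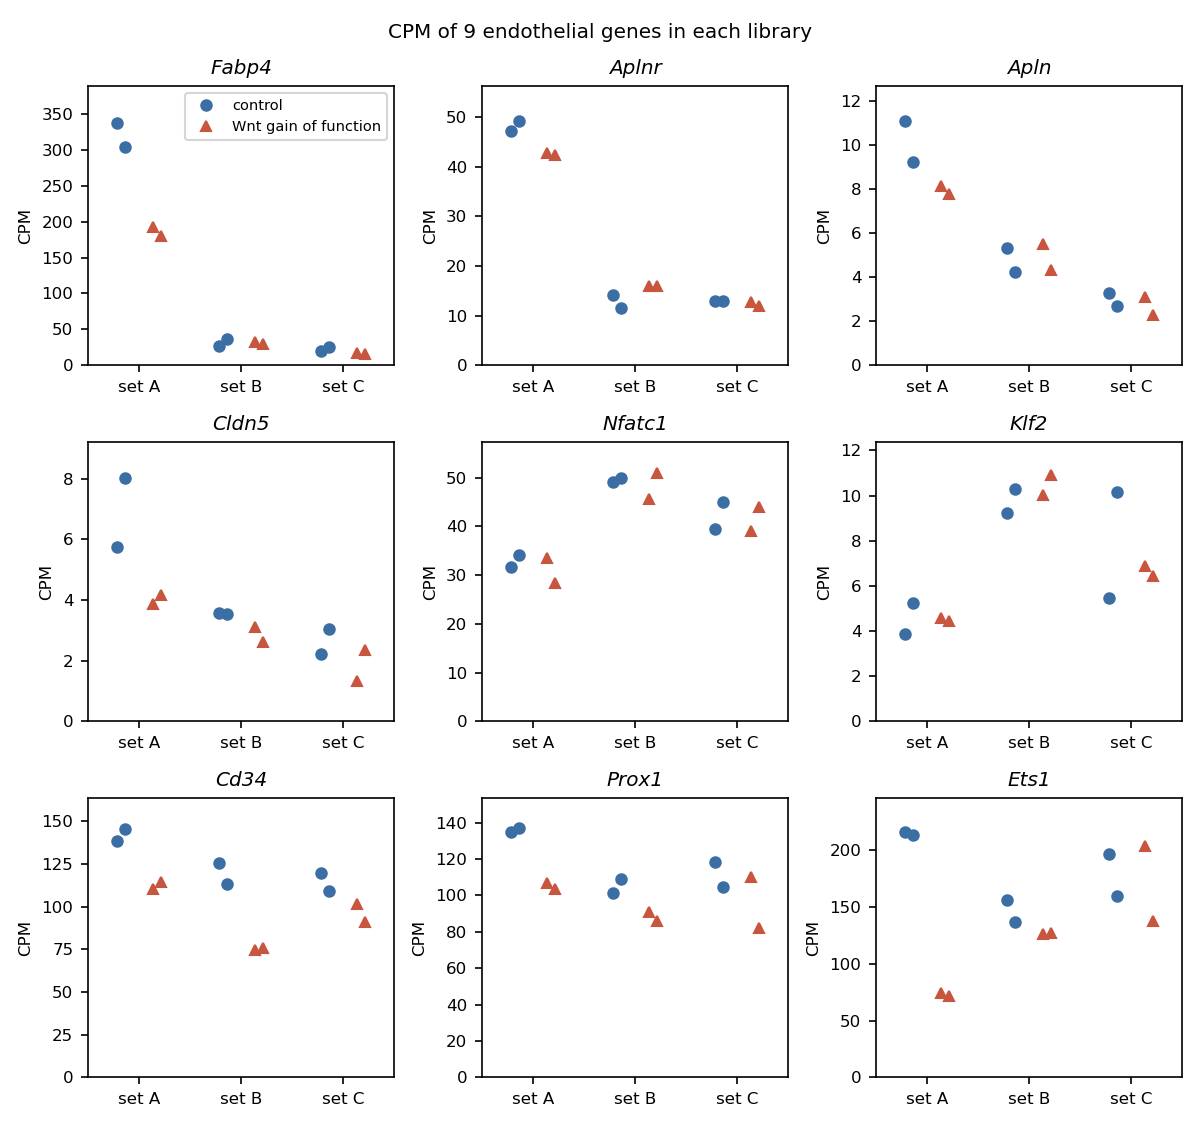
CPM of 9 of the 32 genes in each library, by library set, with controls as blue circles and Wnt GOF libraries as red triangles. Fabp4, Aplnr, Apln and Cldn5 are highest and Nfatc1 and Klf2 lowest in set A, Cd34 and Prox1 average lower in the Wnt GOF libraries of each set, and Ets1 is low in the Wnt GOF libraries of set A, at 71.9 and 74.2 CPM.

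The SoxF factors act together in arterial and lymphatic specification. Sox7 had medians of 23.2 and 27.1 CPM and a log2 fold change of 0.05. Sox18 ranged from 2.65 to 6.95 CPM in the controls (median 5.08) and from 2.66 to 5.36 CPM in the Wnt GOF libraries (median 3.49), with a log2 fold change of -0.41, an SE of 0.23 and an edgeR adjusted p of 0.946. All but 1 of its Wnt GOF libraries, Wnt GOF 1, lay below the control median, though inside the control range. Sox17, an arterial factor, had the lowest level of the 32, at 0.794 to 2.48 and 0.74 to 1.88 CPM, with a log2 fold change of -0.30 and an SE of 0.29.

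The other 4 transcription factors all had log2 fold changes below 0, and none was called. Nfatc1, which in the heart marks endocardium and is required for valve growth, ranged from 31.6 to 49.9 CPM (median 42.2) and from 28.4 to 51 CPM (median 41.5), a log2 fold change of -0.04 with an SE of 0.15. The flow-responsive factors Klf2 and Klf4 had medians of 7.35 and 6.65 CPM, and of 6.6 and 6.25 CPM, with log2 fold changes of -0.03 and -0.07. Neither separated the groups, and the flow-regulated synthase Nos3 had medians of 13.5 and 11.5 CPM with a log2 fold change of -0.06.

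Prox1, the lymphatic determinant that embryonic cardiomyocytes and valve endothelium also make, stood at 118, 135, 137, 101, 109 and 104 CPM in controls 1 to 6. In Wnt GOF 1 to 6 it stood at 107, 103, 90.7, 85.7, 110 and 82.2 CPM. All 6 Wnt GOF libraries lay below the control median of 114 CPM and 3 below the lowest control, so the groups overlapped. The means were 117 ± 15.4 and 96.5 ± 11.7 CPM (SD, n = 6), a log2 fold change of -0.28 with an SE of 0.10 and an edgeR adjusted p of 0.439. Within sets A, B and C it was -0.38, -0.25 and -0.21, and the block gave an edgeR adjusted p of 0.0319. Without the library labelled Wnt GOF 5 the adjusted p was 0.236, with no block.

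The lymphatic markers Pdpn and Ccl21a each stood under 2 gene identifiers in the table, which no other listed gene did. Only the first identifier of each was read, at 0 counts in the 12 libraries, so their zeros were not read as absence. Lyve1, a hyaluronan receptor of lymphatic endothelium that tissue macrophages also carry, had medians of 9.8 and 10.1 CPM and a log2 fold change of -0.08. Whether Prox1 reads came from endothelium or from heart muscle was not tested. The cardiomyocyte marker list summed to 41303 to 52578 CPM in the controls and 39387 to 49431 CPM in the Wnt GOF libraries, and 12 of its 15 genes had log2 fold changes below 0. Myh6 and Myl4, with the lowest p-values of that list, had 0.26 and 0.22, with edgeR adjusted p-values of 0.722 and 0.809. With the sets as a block 2 of the 15 genes were called lower and 0 higher, beside 0.677% and 1.32% of all genes.

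Of the 8 receptors, ligands and signalling genes 4 had log2 fold changes above 0 and 4 below. S1pr1 ranged from 115 to 177 CPM in the controls (median 130) and from 131 to 180 CPM in the Wnt GOF libraries (median 138), all 6 of which lay above the control median, with a log2 fold change of 0.11, an SE of 0.12 and an edgeR adjusted p of 0.999. Eng, the endoglin co-receptor of BMP and TGF-beta signalling, had medians of 27.8 and 30.2 CPM and a log2 fold change of 0.15. Ramp2, the partner of the adrenomedullin receptor, had medians of 53.4 and 55.3 CPM and a log2 fold change of 0.09.

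Robo4, a receptor that limits vessel leak, ranged from 5.74 to 16.9 CPM (median 8) and from 5.59 to 9.32 CPM (median 6.83). Its log2 fold change was -0.44 with an SE of 0.24 and an edgeR adjusted p of 0.927, and it was -0.81 within set A against -0.15 in each of sets B and C. The high values, 12.5 and 16.9 CPM, were the controls of set A. Rasip1, needed for lumen formation, had a lower median in the Wnt GOF libraries, 22.9 against 20.1 CPM, yet a log2 fold change of 0.09. The close pair Wnt GOF 3 and 4 held 35.4 and 32.5 CPM. The other 4 of that group, at 17.7 to 20.3 CPM, lay below the control median.

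The apelin pair and Fabp4 were high in the libraries of set A of both genotypes. The receptor Aplnr, made by sinus venosus and venous endothelium, lay at 47.3 and 49.3 CPM in controls 2 and 3 and at 42.7 and 42.4 CPM in Wnt GOF 1 and 2. The other 8 libraries held 11.6 to 16.1 CPM. Its log2 fold change was -0.07 with an SE of 0.52, and with the sets as a block 0.00 with an SE of 0.09.

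The ligand Apln, made by sprouting tip cells, lay at 7.8 to 11.1 CPM in set A and at 2.29 to 5.51 CPM in the other 8 libraries. Fabp4, a fatty acid carrier of capillary endothelium, showed the widest span of the 32, 21-fold between the highest and lowest library. It lay at 337 and 304 CPM in controls 2 and 3, at 193 and 179 CPM in Wnt GOF 1 and 2, and at 16 to 36.2 CPM in the other 8. The log2 fold change was -0.68 with an SE of 1.00 and an edgeR adjusted p of 0.999. With the sets as a block it was -0.46 with an SE of 0.13 and an edgeR adjusted p of 0.109, and within sets A, B and C it was -0.79, 0.00 and -0.50.

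In 11 of the 32 genes all 4 libraries of set A lay above the other 8, which 6.29% of all genes did. These were Pecam1, Esam, Cldn5, Clec14a, Erg, Fli1, Sox7, Apln, Aplnr, S1pr1 and Fabp4. Pecam1 lay at 153 to 178 CPM in set A and at 109 to 145 CPM elsewhere, Esam at 78.6 to 88.1 against 49 to 65.1 CPM, and Sox7 at 29.4 to 35.3 against 20.7 to 27.7 CPM. In 2 genes set A lay below the other 8, which 6.68% of all genes did. Nfatc1 lay at 28.4 to 34.2 against 39 to 51 CPM, and Klf2 at 3.87 to 5.23 against 5.48 to 10.9 CPM. The sets come from these libraries, so these counts are descriptions without a test.

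Genes of other cell types differed across the same sets. The summed erythroid markers lay at 9723 to 12944 CPM in set A and 13946 to 91329 CPM elsewhere, and the embryonic globin Hbb-bh1 at 28 to 54.7 against 286 to 1709 CPM. The platelet and megakaryocyte markers summed to 14.5 to 22.3 against 35.1 to 66.8 CPM, the epicardial markers to 273 to 301 against 329 to 393 CPM, and the cardiomyocyte markers to 48621 to 52578 against 39387 to 46114 CPM. Their part in the endothelial values was not tested.

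The rest of the endothelial program was read from 50 further genes in 3 lists, of which 46 could be tested. Of these 1 was called higher and 0 lower, beside 0.433% and 0.0677% of all genes, 23 were above 0 and 23 below, and the median log2 fold change was 0.01. An unadjusted p under 0.05 was found for 8, or 17.4%, of which 7 were higher. Of all genes, 6.3% had such a p in either direction and 3.73% had it and were higher. Among the 12 VEGF, Tie and related receptors none was called, and their median was 0.01. Kdr, the main VEGF receptor, had medians of 80.8 and 81.2 CPM, and Tie1 of 71.6 and 77.5 CPM. Calcrl, the adrenomedullin receptor that Ramp2 partners, had medians of 155 and 184 CPM with a log2 fold change of 0.22 and an edgeR adjusted p of 0.464. Ptprb, the phosphatase that acts on VE-cadherin and Tie2, had a log2 fold change of -0.27 and an edgeR adjusted p of 0.793.

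Lmo2, a bridging factor of blood and endothelial transcription complexes, was the gene called. It lay at 14.1 to 16.6 CPM in the controls and at 34.9, 34.5, 41.3, 43.3, 12.7 and 40.5 CPM in Wnt GOF 1 to 6, so 5 of the 6 lay above every control and the library labelled Wnt GOF 5 below them. The log2 fold change was 1.18 with an SE of 0.22 and an edgeR adjusted p of 0.0246. Without Wnt GOF 5 the adjusted p was 4.33e-07, and leaving out any of the other 11 libraries lost the call, with an adjusted p of 0.055 to 0.0761. It passed in 7 of 24 alternatives, and with the sets as a block the edgeR adjusted p was 0.0536. Its partners had log2 fold changes of 0.02 for Tal1, 0.12 for Lyl1 and 0.04 for Gata2, and none of them was called.

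Of the other transcription factors, Mecom had medians of 83 and 55.3 CPM, a log2 fold change of -0.39 and an edgeR adjusted p of 0.793. The 24 further endothelial genes tested gave none, with a median of -0.11, and their lowest p-values were those of the adhesion molecule Mcam, at -0.24 with an edgeR adjusted p of 0.395, and the phosphatase Ptprm, at 0.32 with 0.526. With the sets as a block 3 of the further genes were called lower, Gimap4, Myct1 and Cav1, with edgeR adjusted p-values of 0.0107, 0.0271 and 0.0367, beside 0.677% of all genes.

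Those 3 genes and Gpihbp1, named after their values were seen, took the pattern of Fabp4. The caveolin Cav1 lay at 392 and 379 CPM in controls 2 and 3, at 278 and 259 CPM in Wnt GOF 1 and 2, and at 72.8 to 110 CPM elsewhere. Gpihbp1, the capillary anchor of lipoprotein lipase, lay at 10.8 to 18.9 CPM in set A against 1.77 to 3.27 CPM. Gimap4 lay at 46.9 to 74.8 against 21.4 to 33 CPM, and Myct1 at 21.8 to 31.6 against 14.5 to 18.8 CPM. Over the 46 further genes, 13 had set A above all other libraries and 6 below, beside 6.29% and 6.68% of all genes.

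Lists for vessel subtypes gave 1 call. Of the 10 endocardial genes, which include Emcn and Nfatc1, none was called, 6 were above 0 and the median was 0.16. An unadjusted p under 0.05 was found for 3, or 30%, all higher. Of all genes, 6.3% had such a p in either direction and 3.73% had it and were higher. Nrg1, the endocardial ligand for ERBB receptors of heart muscle, ranged from 8.76 to 16.5 CPM in the controls (median 8.94) and from 14.3 to 20.6 CPM in the Wnt GOF libraries (median 17.6). Its log2 fold change was 0.67 with an SE of 0.17 and an edgeR adjusted p of 0.13, or 0.0242 with the sets as a block, 0.0209 without control 6 and, by DESeq2, 0.0184. Without the library labelled Wnt GOF 5 it was 0.09. Smoc1 had medians of 7.34 and 10.3 CPM and an edgeR adjusted p of 0.564. Npr3, named after its values were seen, had medians of 74.3 and 107 CPM, a log2 fold change of 0.44 and an edgeR adjusted p of 0.789, or 0.0257 with the block.

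Of the 12 arterial genes 1 was called lower and 0 higher, beside 0.0677% and 0.433% of all genes. Of the log2 fold changes 3 were above 0 and 9 below, and the median was -0.04. An unadjusted p under 0.05 was found for 3, or 25%, 1 higher and 2 lower, beside 6.3% of all genes. Hey2, a Notch target that compact ventricular muscle also makes, ranged from 88.1 to 106 CPM in the controls. In the Wnt GOF libraries it ranged from 63.9 to 81.3 CPM, with no overlap, which 0.46% of all genes showed. The log2 fold change was -0.43 with an SE of 0.07 and an edgeR adjusted p of 0.0145, and the call held when each of the 12 libraries was left out. It was lost with limma-voom, with the pairs summed and outside set A, at adjusted p-values of 0.0504, 0.208 and 0.282. Hey1 had medians of 11.8 and 8.05 CPM, a log2 fold change of -0.52 and an edgeR adjusted p of 0.186, or 0.032 with the sets as a block, and DESeq2 gave 0.0415. The endothelial Notch genes Notch1, Notch4 and Dll4 had log2 fold changes of 0.07, -0.04 and -0.32, none of them called. Cxcr4 had the highest log2 fold change of the arterial list, 0.75, and was not called either. Of the 5 venous and the 5 lymphatic genes tested, and of the 7 flow-response genes, none was called. Nr2f2, the venous determinant, Nrp2, Mmrn1, Thbd and Edn1 had log2 fold changes of 0.14, -0.17, -0.28, -0.18 and 0.15.

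Cells that surround or share markers with endothelium were read in the same way. Of the 11 mural genes tested 1 was called lower and 0 higher, beside 0.0677% and 0.433% of all genes. The gene called was the pericyte gene Rgs5. It stood at 30.2 to 112 CPM in the controls and at 5.26 to 28.9 CPM in the Wnt GOF libraries. Its log2 fold change was -2.54 with an SE of 0.46 and an edgeR adjusted p of 0.0404. The call was lost when any of 10 single libraries was left out, all but control 6 and Wnt GOF 5, with an adjusted p of up to 0.113, and it passed in 10 of 24 alternatives. Of the 11 genes 8 were below 0. An unadjusted p under 0.05 was found for 2, or 18.2%, both lower. Of all genes, 6.3% had such a p in either direction and 2.57% had it and were lower. The summed level of the mural genes had a median of 2216 CPM in the controls and 1964 CPM in the Wnt GOF libraries. Notch3, the other with an unadjusted p under 0.05, had a log2 fold change of -0.28 and an edgeR adjusted p of 0.685, and the pericyte markers Pdgfrb and Cspg4 had 0.01 and -0.03.

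Macrophages carry Lyve1 and Stab1 as well as their own genes. Of the 15 macrophage and leukocyte markers 12 had log2 fold changes above 0, 7, or 46.7%, had an unadjusted p under 0.05 beside 6.3% of all genes, the median was 0.39 and 0 were called. Fcgr1 and Aif1, with the lowest p-values, had log2 fold changes of 0.60 and 0.58 and edgeR adjusted p-values of 0.468 and 0.505. Their summed level was 147 to 192 CPM in the controls and 183 to 228 CPM in the Wnt GOF libraries. In the 10 epicardial and 12 cushion mesenchyme genes, 9 and 11 were below 0 and none was called. Tbx18 and Msln of the epicardium had log2 fold changes of -0.15 and -0.38, and the collagen genes Col1a1 and Col1a2 of -0.52 and -0.32. Col1a2 had an edgeR adjusted p of 0.582, or 0.0143 with the sets as a block. The globins Hbb-bt and Hbb-bs stood at -0.38 and -0.37, the platelet gene Pf4 at 0.19, and the neural genes Tubb3 and Elavl4 at 0.17 and -0.07. The part of these cells in the values of the 32 genes was not tested.

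The authors' deposited table of their own comparison listed all 32 genes and gave 0 of them an adjusted p under 0.05. The lowest adjusted p in the authors' deposited table was 0.243, for Cd34, with a log2 fold change of -0.42. The other 2 with an unadjusted p under 0.05 in the authors' deposited table were Ets1 and Prox1, at log2 fold changes of -0.62 and -0.28.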

How the data were processed

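Bulk RNA-seq of mouse ventricles was analysed from 1 deposited count table of 12 libraries. Read counts per Ensembl gene are whole numbers that the authors deposited without normalization, per the file headers. The submitters' processing notes name Subread, featureCounts and edgeR. Genome build, annotation, versions and strand setting remain not given in the sources used, so overlapping and antisense genes are uncertain. GC percent of each gene, deposited as an annotation column, was not used. The authors' deposited comparison table holds log2 fold changes, log2 CPM, p-values, a log-odds score and a linear fold, per the file headers. Only its log2 fold changes and p-values were used, where named.

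Of 41422 rows, 622 repeats of the same gene with equal counts were dropped. Samples were grouped by the genotype label. Counts were tested in R 4.3.3 with edgeR 4.0.16 (filterByExpr with a minimum count of 10, TMM, robust quasi-likelihood fit with group as the only term), leaving 14774 genes, and p-values were adjusted by Benjamini-Hochberg over all of them and called under 0.05. SEs come from the F statistic. Exon length was taken from the GENCODE vM21 annotation for levels per kb only. The test was checked on simulated data, where 7.89% of its calls were false and 0.104% of the unchanged genes were called. Of the genes simulated at log2 fold changes of -1 and 1, the test called 73.5% and 84%.

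The 32 genes and all lists were chosen with earlier results of these data known. Named are all 32 genes, the Wnt readouts, and of each other list the genes called or else the 2 with the lowest p, except 1 gene not reported here. Genes named as partners, defining markers or background to these, and Cav1, Gpihbp1, Gimap4, Myct1, Npr3 and Cxcr4, were picked with their values in view. The alternatives comprised other scalings, DESeq2 1.42.0, limma-voom of limma 3.58.1, other count filters (none, or 1 CPM in 6 libraries), haemoglobin genes left out, the replicate number or the library sets as a block, the 3 closest pairs summed and each library left out. Leaving out set A as a whole was added after seeing the data. The closeness of libraries was measured as the mean chi-square of genes that had 20 counts or more in the pair. Library depth limits low genes such as Sox17 most.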

Additional observations from a re-analysis of the deposited data

Results flagged for a closer look

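In groups of 6 libraries, a library is listed here when its gap to the nearest other library exceeds a fixed share of the group's range, the 95% critical value of Dixon's test, 0.625. Chance alone lists about 1 in 20 groups, and 5 of the 150 groups checked were listed, 2 of them among the 64 groups of the endothelial genes. Plvap stood at 23.1 CPM in control 1, and the nearest control was at 17.1 CPM. Sox18 stood at 5.36 CPM in Wnt GOF 1, and the nearest of its group was at 3.58 CPM.

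Of the other genes, Lmo2 stood at 12.7 CPM and the arterial and coronary chemokine receptor Cxcr4 at 2.81 CPM in the library labelled Wnt GOF 5, with the nearest of that group at 34.5 and 14.1 CPM. The globin Hbb-bs stood at 218 CPM in Wnt GOF 6, with the nearest at 1050 CPM.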

How the results depend on the processing

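No alternative called any of the 32 genes higher. The library sets as a block called 2 lower (Cd34 and Prox1), and each of the other 23 alternatives called 0. The block gave 10 and the closest pairs summed 1 of the 32 at an unadjusted p under 0.05, and leaving out a library gave 2 to 5. The median log2 fold change of the 32 lay between -0.06 and 0.06 when a library was left out. Against 64 genes called higher over the whole table, DESeq2 gave 135, limma-voom 3, no count filter 97, the sets as a block 195, the pairs summed 0, the libraries outside set A 0, and leaving out a library 34 (without Wnt GOF 2) to 149 (without Wnt GOF 5). Against 10 called lower, the same alternatives gave 25, 3, 12, 100, 1, 2 and 4 to 28.

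Lmo2, the gene called higher among the further endothelial genes, was not called, so that the count was 0, with the replicate block, limma-voom, no count filter, the sets as a block, the pairs summed or set A left out, and leaving out a library gave 0 to 1. The sets as a block called 3 of these genes lower. Replicate numbers did not pair the libraries: deviations of same-numbered libraries correlated at -0.377 to 0.463, and 3 of 12 libraries correlated best with their own number. The replicate block called 47 genes higher and 8 lower.

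Signs turned in at least 1 alternative for 13 of the 32 genes, none of which was ever called. The largest main log2 fold change in size among them was that of Apln, at -0.20 with an SE of 0.38. Outside set A, log2 fold changes turned to -0.0006975 (Pecam1), 0.181 (Cdh5), 0.02475 (Esam), 0.104 (Icam2), -0.0281 (Erg), 0.0119 (Klf4), 0.136 (Aplnr) and, for the neural gene Tubb3, -0.126. With the pairs summed they turned to 0.0456 (Cdh5), 0.0433 (Esam), -0.000995 (Erg) and 0.04004 (Aplnr). The replicate block gave 0.0189 (Cdh5) and 0.00665 (Aplnr), limma-voom 0.0179 and 0.0134 for the same genes, library size alone 0.0102 (Cdh5) and 0.000455 (Esam), and the sets as a block 0.0171 (Cdh5). Leaving out a library turned signs for Pecam1 (-0.0489 to 0.0915), Cdh5 (-0.055 to 0.0876), Esam (-0.0939 to 0.0824), Icam2 (-0.155 to 0.00882), Erg (-0.0606 to 0.146), Sox7 (-0.0138 to 0.157), Nfatc1 (-0.122 to 0.0429), Klf2 (-0.192 to 0.0843), Klf4 (-0.184 to 0.0116), Apln (-0.365 to 0.057), Aplnr (-0.32 to 0.265), Rasip1 (-0.057 to 0.166), Lyve1 (-0.184 to 0.0114), Pf4 (-0.0259 to 0.39), Gpihbp1 (-0.966 to 0.153). The cause was not tested.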
